A study of Mus musculus with 11 samples.

Results

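Splicing factor and hnRNP genes were followed in round spermatids and pachytene spermatocytes of Dnmt3L heterozygous and wild type mice. The members were the array probes whose current gene symbol begins with Hnrnp, Srsf, Sf3a, Sf3b, Snrp or Prpf, together with the probes for U2af1, U2af2 and Sf1. Snrpn was left out. They came to 146 of the 46643 probes on the array and to 62 of the 19403 genes that a probe with a single symbol names. A filter on low values kept 113 of these probes for 57 genes, of 27986 probes kept in all. The 33 probes it removed read between 6.49 and 7.04 on every array on the log2 scale, close to the array median of 6.87, and Hnrnpd, Hnrnpf, Hnrnph2, Prpf38a and Prpf4b had no other probe.

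The groups were heterozygous spermatids (3 arrays), wild type spermatids (3 arrays), heterozygous spermatocytes (2 arrays) and wild type spermatocytes (3 arrays). Heterozygous mice carry a Dnmt3L allele disrupted by a LacZ insertion beside an intact allele. A haploid spermatid of such a male carries either the disrupted or the intact allele, and neighbouring spermatids share RNA and protein through cytoplasmic bridges, so heterozygous is the genotype of the mouse and not of the single spermatid. All mice were C57Bl/6 and 8 to 12 weeks old. The cells of 10 mice made up a preparation, enriched by centrifugal elutriation and hybridised to a single array, so a replicate is a pool and not an animal. The third heterozygous spermatocyte preparation that the methods mention is not analysed here. Spermatids and spermatocytes were hybridised to separate BeadChips, so BeadChip and cell type cannot be told apart. In such bulk RNA, fewer cells of a type and less RNA per cell cannot be told apart either.

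Introns are removed from pre-mRNA by the spliceosome, a set of small nuclear RNAs and proteins that assembles anew on each intron. The U1 particle binds the 5′ splice site, Sf1 and the U2af proteins mark the branch point and the 3′ splice site, and the U2 particle with its Sf3a and Sf3b complexes then takes the branch point. The Prpf proteins belong mainly to the U4, U5 and U6 particles and to the complex that activates the spliceosome, while SR proteins and hnRNPs bind exons and introns and shift the choice of splice sites. The testis is known for a large variety of splice forms, and in late spermatids transcription stops as the chromatin is compacted.

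Upstream sequences of 5 members on which the results turn are shown first. They are the 250 bases before the annotated start in RefSeq, build GRCm38.p6, read 5′ to 3′ on the strand of the gene, and they stand for the genes with the largest fall and the smallest p in spermatids (Hnrnpm and Hnrnpa0), a gene with a higher spermatid level (Snrpg) and the 2 genes called between the genotypes (Sf3a2 and Hnrnpul1). Hnrnpm lies at chr17:33685459-33685708 on the minus strand, Hnrnpa0 at chr13:58128557-58128806 on the minus strand, Snrpg at chr6:86371290-86371539 on the plus strand, Sf3a2 at chr10:80798485-80798734 on the plus strand and Hnrnpul1 at chr7:25754760-25755009 on the minus strand. Capitals mark matches, on either strand, to TATAAA (the TATA box), CCAAT (the CCAAT box), GGGCGG (a GC box), TGACGT and the longer TGACGTCA that contains it (the cAMP response element) and CCGGAAG (a core bound by ETS factors).
Hnrnpm: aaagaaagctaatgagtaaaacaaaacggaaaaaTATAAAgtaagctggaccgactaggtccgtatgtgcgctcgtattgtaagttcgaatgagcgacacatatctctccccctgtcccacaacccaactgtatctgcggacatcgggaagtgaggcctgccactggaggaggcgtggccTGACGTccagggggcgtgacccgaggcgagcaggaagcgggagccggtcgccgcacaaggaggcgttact
Hnrnpa0: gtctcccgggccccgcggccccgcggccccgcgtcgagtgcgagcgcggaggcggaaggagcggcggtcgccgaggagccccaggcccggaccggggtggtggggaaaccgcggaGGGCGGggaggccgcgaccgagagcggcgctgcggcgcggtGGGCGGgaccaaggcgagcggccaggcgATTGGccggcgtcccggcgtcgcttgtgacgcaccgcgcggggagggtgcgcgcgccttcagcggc
Snrpg: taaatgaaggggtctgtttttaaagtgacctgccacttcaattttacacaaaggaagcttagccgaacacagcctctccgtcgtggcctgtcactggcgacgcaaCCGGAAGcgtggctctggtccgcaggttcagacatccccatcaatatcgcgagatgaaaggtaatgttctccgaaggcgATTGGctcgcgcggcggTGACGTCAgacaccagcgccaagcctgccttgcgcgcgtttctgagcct
Sf3a2: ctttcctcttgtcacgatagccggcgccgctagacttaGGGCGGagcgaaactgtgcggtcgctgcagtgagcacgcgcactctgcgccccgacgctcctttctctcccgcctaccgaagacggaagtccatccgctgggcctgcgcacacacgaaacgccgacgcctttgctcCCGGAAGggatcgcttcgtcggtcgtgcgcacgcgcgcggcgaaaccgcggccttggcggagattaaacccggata
Hnrnpul1: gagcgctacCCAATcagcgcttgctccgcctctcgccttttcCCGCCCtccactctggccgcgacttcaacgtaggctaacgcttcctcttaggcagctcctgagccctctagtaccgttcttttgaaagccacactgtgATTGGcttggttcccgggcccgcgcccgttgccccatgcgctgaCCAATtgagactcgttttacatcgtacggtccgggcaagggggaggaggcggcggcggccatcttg
The Hnrnpm window holds a match to TATAAA, near the upstream end of the window and far from the annotated start, and a match to TGACGT. Whether that TATAAA acts as a TATA box was not tested. The Snrpg window holds the whole TGACGTCA. Hnrnpa0 has 46 CpG dinucleotides in its window, against 19 in that of Hnrnpm, 21 in that of Snrpg, 37 in that of Sf3a2 and 22 in that of Hnrnpul1.

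A promoter was matched for 55 of the 62 member genes, the first row of the table being used where a gene had several. Member windows held a median of 19 CpG dinucleotides, against 6 over the 27025 genes of the table. GGGCGG was found in 67.3% of the member windows and in 32.9% of all windows, CCAAT in 50.9% against 34.5%, CCGGAAG in 27.3% against 7.05%, TGACGT in 21.8% against 6.56%, TGACGTCA in 3.64% against 1.62% and TATAAA in 9.09% against 13%. Of the 24 matched genes with a probe called lower in wild type spermatids, 7 held TGACGT and 5 held CCGGAAG. Of the 25 tested and matched genes with no probe called in either direction in that comparison, 3 held TGACGT and 6 held CCGGAAG. A match describes the letters of the window only.

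The arrays had been quantile normalised, and their medians lay between 6.873 and 6.874. Between spermatocyte and spermatid arrays, Pearson's r over all probes was 0.939 to 0.962 for the spermatid arrays numbered 2, of both genotypes, and 0.866 to 0.921 for the other 4 spermatid arrays. Round spermatid markers stood at a mean log2 level of 11.94 to 12.46 in heterozygous spermatids against 10.55 to 10.65 in heterozygous spermatocytes, and at 12.06 to 12.51 in wild type spermatids against 9.64 to 10.32 in wild type spermatocytes, and 15 of 16 were called higher in wild type spermatids. Of 9 pachytene markers, 0 were called lower in heterozygous cells, with 2 at an unadjusted p under 0.05, and 2 (Piwil2 and Ovol1) in wild type cells. Macrophage and blood markers were called higher for 4 of 5 genes in heterozygous and for 5 of 5 in wild type spermatids, with list means of 9.57 to 9.61 in heterozygous spermatids against 7.14 to 7.25 in heterozygous spermatocytes, and of 8.91 to 10.74 in wild type spermatids against 6.96 to 7.22 in wild type spermatocytes. Of 10 spermatogonium markers Sohlh1 was called higher in heterozygous spermatids, and Kit, Ret, Sohlh1 and Uchl1 were called higher and Id4 lower in wild type spermatids. Of 7 Leydig cell markers Star was called lower in both. Peritubular markers were called higher for 2 of 6 genes in heterozygous and 3 of 6 in wild type spermatids. The part of such cells in the member levels was not tested. Of 10 Sertoli cell markers, 0 were called between the cell types by limma, and an unadjusted p under 0.05 was met by 0 of them in heterozygous cells and by 1 in wild type cells. The Dnmt3l probe was not called between the genotypes (adjusted p = 0.868 in spermatids and 0.374 in spermatocytes, limma). In spermatocytes it read 8.82 and 8.66 in heterozygous against 8.27, 8.17 and 8.10 in wild type cells, a difference of 0.56 without overlap. As the Dnmt3l probe reads the last exon per the study, downstream of the disrupted exon and common to all transcript forms, it checks no label.

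**Figure D1:**
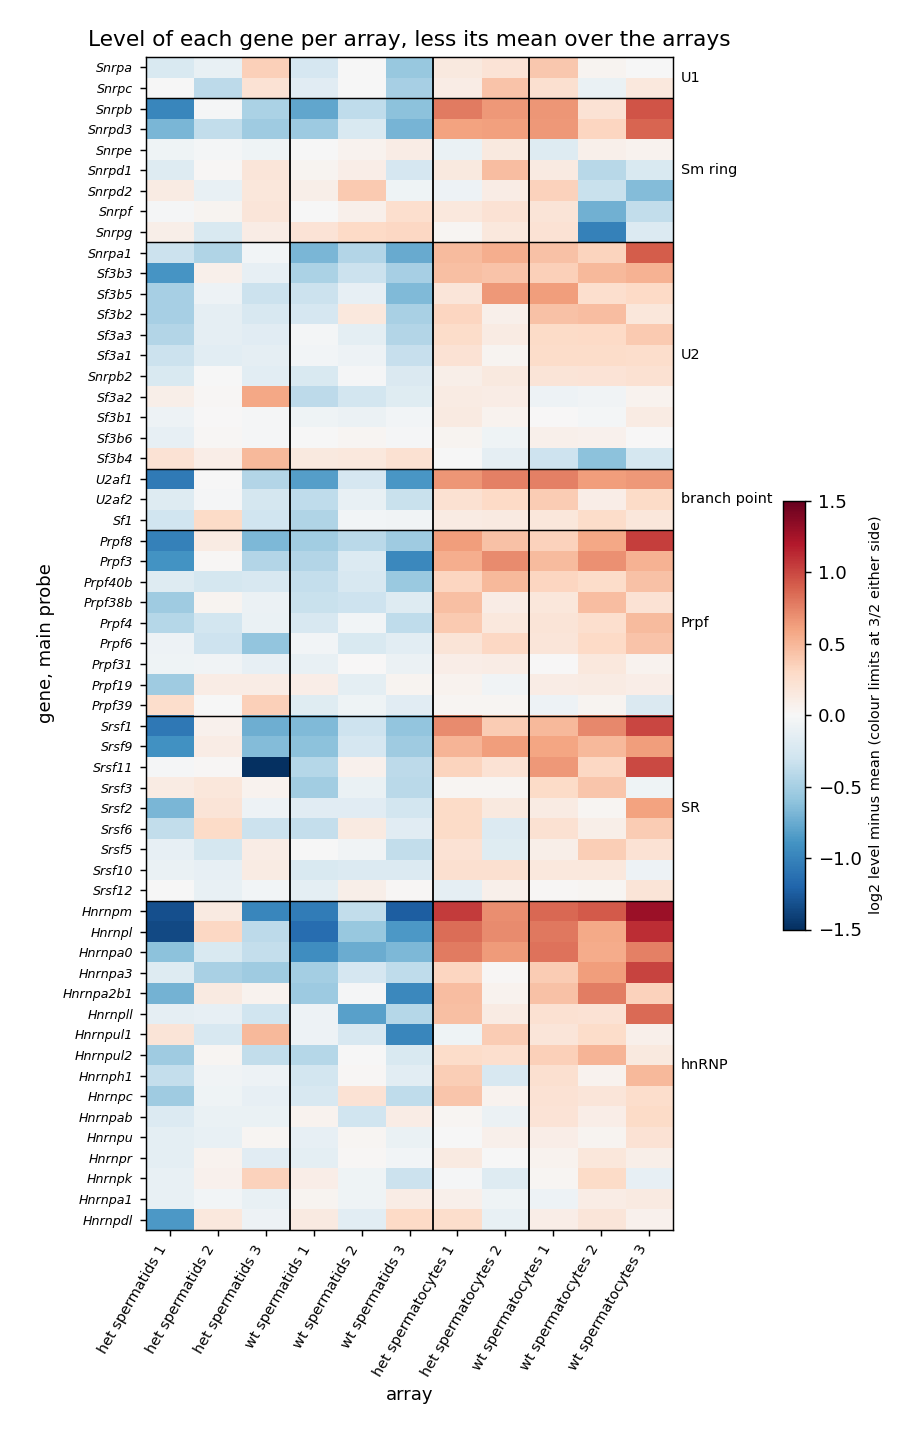
Heat map of 57 genes, each by its main probe (rows, grouped by role), on 11 arrays (columns, spermatids left of spermatocytes and heterozygous left of wild type). Colour is the deposited log2 level less the mean of that probe over the arrays, red above and blue below, and values past the colour limits take the end colour (Srsf11, heterozygous spermatids 3); most rows are blue in spermatids and red in spermatocytes, with the spermatid arrays numbered 2 the palest of the spermatid columns in many rows.

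The first comparison asked how the transcripts of the splicing machinery differed between haploid spermatids and meiotic spermatocytes. Most member probes read lower in spermatids in both genotypes, by a median of 0.24 on the log2 scale in heterozygous cells and 0.40 in wild type cells. In heterozygous cells 19 of 113 probes were called lower and 0 higher, where 9.15% of all tested probes were called lower and 8.65% higher. In wild type cells 43 of 113 were called lower and 2 higher, where 15.5% of all tested probes were called lower and 11.5% higher. A probe was called when its adjusted p from limma was under 0.05, with Benjamini-Hochberg adjustment over all 27986 probes and 4 contrasts together.

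In heterozygous cells 96 of 113 probes lay below zero and in wild type cells 104 of 113, and the medians over all tested probes were -0.02 and -0.03 in these 2 comparisons. All differences are spermatids minus spermatocytes, or heterozygous minus wild type. For genotype this is opposite in sign to the convention of the study. Of the 19 probes called in heterozygous cells 18 were also called lower in wild type cells, but the 2 comparisons use different arrays within a shared estimate of the spread, and the difference between them was tested only by the interaction given further on. By main probe, the probe of a gene with the highest mean over all arrays, 13 of 57 genes were called lower in heterozygous spermatids and 22 in wild type spermatids, where 11% and 16.9% of all named genes were. Of 32 genes with several tested probes, all probes lay below zero for 22 in heterozygous cells and for 29 in wild type cells, and no gene had probes called in opposite directions.

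The mean level over the 57 main probes was 9.24, 9.55 and 9.44 in the 3 heterozygous spermatid arrays, against 9.87 and 9.81 in heterozygous spermatocytes. It was 9.32, 9.48 and 9.27 in wild type spermatids, against 9.87, 9.81 and 9.92 in wild type spermatocytes. No spermatid array reached a spermatocyte array in either genotype. The spermatid array numbered 2 was the highest of its group for 13 of the 19 probes called lower in heterozygous cells and for 34 of the 43 called lower in wild type cells. On these same arrays the round spermatid markers were the lowest of their groups, at 11.94 in heterozygous and 12.06 in wild type spermatids, and the pachytene markers highest, at 10.72 in heterozygous and 10.58 in wild type spermatids. Without both arrays, 36 of 114 probes were called in heterozygous cells (34 lower) and 51 of 114 in wild type cells (48 lower). The share of all tested probes called without both arrays is not given here, so these counts are not read as particular to the members. The part of the makeup of these 2 preparations in the levels was not tested otherwise.

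**Figure D2:**
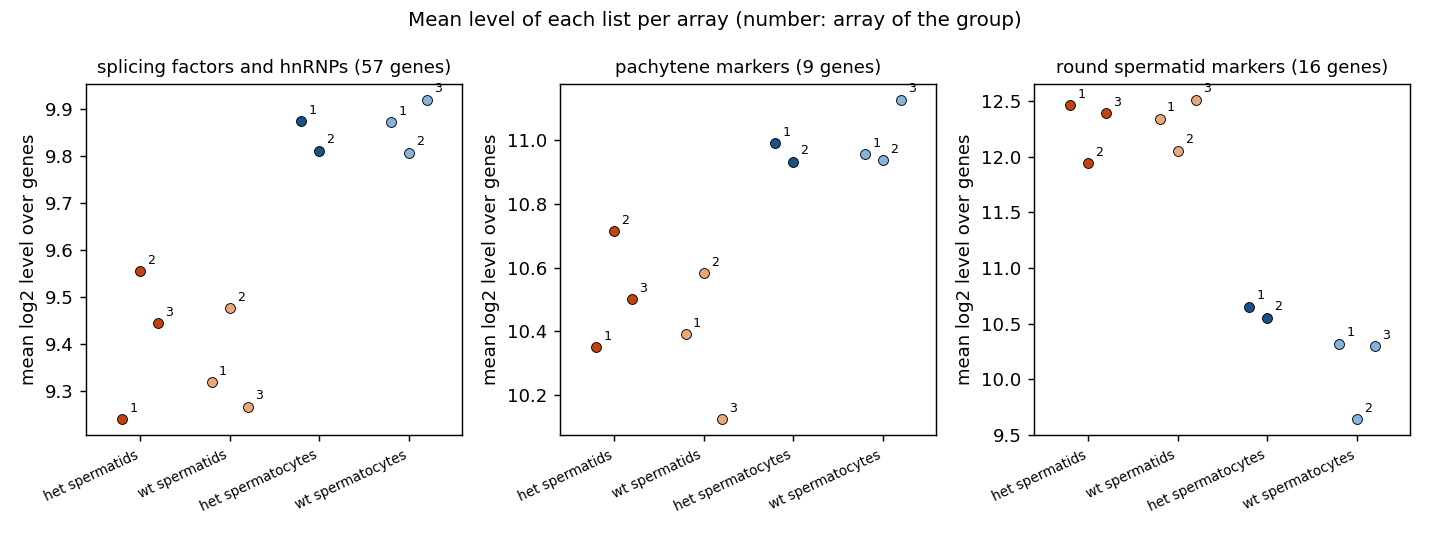
Mean log2 level per array over the 57 splicing factor and hnRNP genes, 9 pachytene markers and 16 round spermatid markers, with the array number beside each point. In the first panel the spermatid arrays lie between 9.24 and 9.55 and the spermatocyte arrays between 9.81 and 9.92, and the spermatid arrays numbered 2 are the highest of their groups.

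The number of calls depended on single arrays. In heterozygous cells it was 4 without heterozygous spermatocyte array 2, 5 without heterozygous spermatocyte array 1, 10 without wild type spermatocyte array 2 or wild type spermatid array 1, 11 without heterozygous spermatid array 1 and 34 without heterozygous spermatid array 2. Leaving out a heterozygous spermatocyte array leaves a lone array in that group, which is then assumed to vary like the other groups. In wild type cells it was 21 without spermatocyte array 3, 22 without spermatid array 1 or 3, 24 without spermatocyte array 2 and 53 without heterozygous spermatid array 2. Under each of these the probes called lower outnumbered those called higher. The share of all tested probes called in these fits is not given here. The changes in count are thus not read as particular to the members.

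Calls were also counted on either side of a signal level. Of the member probes 78 had a mean level of 7.5 or more, a split chosen after the values were seen, and 35 lay below it. Above the split 18 of 78 were called lower in heterozygous cells and 34 of 78 in wild type cells, where 15.4% and 25.8% of all probes above it were. Below the split 1 of 35 was called lower in heterozygous cells and 9 of 35 in wild type cells, where 4.56% and 7.97% of all probes below it were. Of all 27986 tested probes 11818 lay above the split, a smaller part than of the members. The role groups that follow are set against all tested probes whatever their level, so those shares do not allow for signal level.

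**Figure D3:**
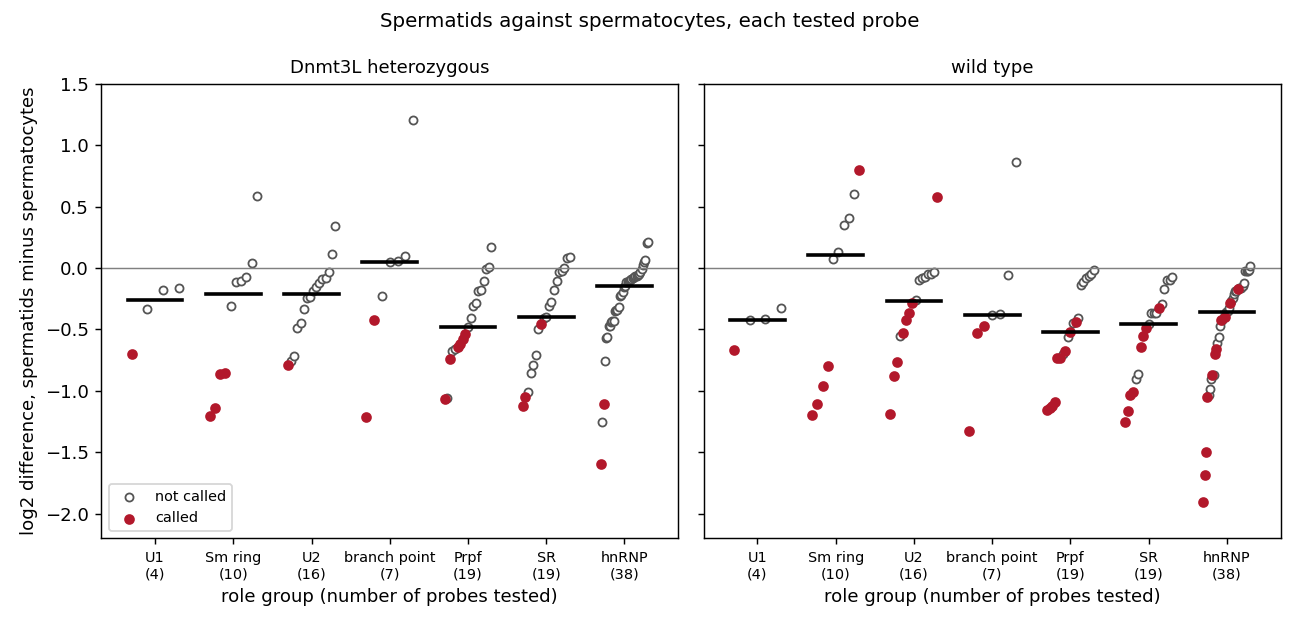
Log2 difference, spermatids minus spermatocytes, of each of the 113 tested probes by role group, in heterozygous (left) and wild type (right) cells. Filled points passed an adjusted p of 0.05 and bars are medians; in wild type cells the called points lie below zero apart from 1 Sm ring probe (Snrpg) and 1 U2 probe (Sf3b4).

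Within the U1 particle, which opens recognition of an intron, Snrpa (the A protein of U1) and Snrpc (the C protein of U1) gave 4 probes. A single probe of Snrpa of 3 tested, 6940484, was called lower in both genotypes, by 0.70 (adjusted p = 0.0303, limma) in heterozygous and 0.67 (adjusted p = 0.0232) in wild type spermatids. It read 9.70, 9.79 and 9.94 in heterozygous spermatids against 10.54 and 10.49 in heterozygous spermatocytes, and 9.78, 9.81 and 9.47 in wild type spermatids against 10.70, 10.22 and 10.15 in wild type spermatocytes. The cell types did not overlap. The other 2 Snrpa probes, of which 4150121 is the main one, had wild type differences of -0.42, and the wild type call was lost with adjusted p between 0.0506 and 0.0698 without heterozygous spermatocyte array 1 or 2 or wild type spermatid array 1 or 3. It was also lost with only the groups compared in the fit (0.0775) and with the mean of the 3 tested Snrpa probes (0.101). Snrpc differed by -0.33 in both genotypes (adjusted p = 0.432 in heterozygous and 0.375 in wild type cells).

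The Sm ring, the protein ring that encloses the snRNAs of most spliceosomal particles, divided into genes called lower and genes that were not. Snrpb and Snrpd3 fell in both genotypes. Snrpb (SmB) was called with all 3 of its probes, and its main probe 3520671 read 9.26, 10.22 and 9.77 in heterozygous spermatids against 11.02 and 10.89 in heterozygous spermatocytes, and 9.47, 9.86 and 9.63 in wild type spermatids against 10.91, 10.45 and 11.19 in wild type spermatocytes. It fell by 1.20 (SE 0.28, adjusted p = 0.0266, limma) in heterozygous and 1.19 (SE 0.25, adjusted p = 0.0177) in wild type spermatids. Every spermatid array was below every spermatocyte array. The wild type call was lost without spermatocyte array 1 or 3 or spermatid array 1 (adjusted p of 0.0542 to 0.0647), and the heterozygous call without heterozygous spermatocyte array 1 or 2 or spermatid array 3 (0.0580 to 0.135), and with only the groups compared in the fit (0.0890).

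Snrpd3 (SmD3), with a single probe, read 10.34, 10.66 and 10.50 in heterozygous spermatids against 11.63 and 11.65 in heterozygous spermatocytes, and 10.49, 10.80 and 10.34 in wild type spermatids against 11.68, 11.36 and 11.91 in wild type spermatocytes. The groups stood apart by more than their spread, at -1.14 (95% interval -1.54 to -0.73, adjusted p = 0.00543, limma) in heterozygous and -1.11 (-1.47 to -0.75, adjusted p = 0.00392) in wild type cells. Over 22 alternatives in heterozygous cells the Snrpd3 call held, with adjusted p of 0.000701 to 0.0346.

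Snrpg (SmG) was the member with the largest called increase. Its probe 104010133 read 8.59, 7.83 and 8.20 in heterozygous spermatids against 7.58 and 7.66 in heterozygous spermatocytes, and 8.23, 8.21 and 8.11 in wild type spermatids against 7.45, 7.35 and 7.36 in wild type spermatocytes. No arrays overlapped between the cell types. It rose by 0.80 (SE 0.16, adjusted p = 0.0136, limma), 1.74-fold, in wild type spermatids, and its difference in heterozygous cells was 0.59 (adjusted p = 0.0676). The main probe of Snrpg, 2340551, was not called, with 12.02, 11.71 and 12.04 in heterozygous spermatids against 11.96 and 12.09 in heterozygous spermatocytes, and 12.13, 12.23 and 12.24 in wild type spermatids against 12.15, 10.92 and 11.73 in wild type spermatocytes (wild type difference 0.60, adjusted p = 0.21). Wild type spermatocyte array 2 was the lowest array for this probe.

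Snrpd1, Snrpd2, Snrpe and Snrpf were called in neither genotype. In wild type cells their differences were 0.13, 0.35, 0.08 and 0.41 (adjusted p of 0.275 to 0.771), and in heterozygous cells -0.31, 0.04, -0.07 and -0.12. The Snrpe probe averaged 6.89, near the floor of the array, so it had little room to show a fall. Over the 10 Sm ring probes the median was -0.21 in heterozygous and 0.10 in wild type cells. The wild type value was the sole median above zero among the role groups in that comparison. By main probe the mean over the 7 Sm ring genes was 11.09, 10.54 and 10.86 in wild type spermatocytes and 10.66, 10.85 and 10.67 in wild type spermatids. Wild type spermatocyte array 2 thus lay below every wild type spermatid array, and its part in the wild type median was not tested.

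In the U2 particle, which pairs with the branch point, 1 of 16 probes was called lower in heterozygous cells, 6.25% against 9.15% of all tested probes. In wild type cells 7 were called lower, 43.8% against 15.5%, and 1 higher, 6.25% against 11.5%. Snrpa1 (the U2 A′ protein) read 8.92, 8.79 and 9.20 in heterozygous spermatids against 9.72 and 9.80 in heterozygous spermatocytes, and 8.56, 8.81 and 8.49 in wild type spermatids against 9.69, 9.58 and 10.16 in wild type spermatocytes. The cell types did not overlap, and Snrpa1 fell by 0.79 (SE 0.18, adjusted p = 0.0257, limma) in heterozygous and 1.19 (SE 0.16, adjusted p = 0.00325) in wild type spermatids. Its partner Snrpb2 (U2 B″) fell by 0.37 in wild type spermatids (adjusted p = 0.0173) and differed by -0.25 in heterozygous cells (adjusted p = 0.114).

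Sf3b4, an Sf3b subunit that touches the pre-mRNA next to the branch point, went the other way. It read 12.00, 11.89 and 12.27 in heterozygous spermatids against 11.78 and 11.65 in heterozygous spermatocytes, and 11.93, 11.94 and 12.01 in wild type spermatids against 11.47, 11.17 and 11.52 in wild type spermatocytes. The lowest spermatid array was above the highest spermatocyte array. Sf3b4 rose by 0.57 (SE 0.12, adjusted p = 0.0157, limma), 1.49-fold, in wild type spermatids, and its difference in heterozygous cells was 0.34 (adjusted p = 0.159). Of the other Sf3b genes, Sf3b3 fell by 0.88 and Sf3b5 by 0.76 in wild type spermatids (adjusted p = 0.0274 and 0.029), Sf3b2 differed by -0.55 (adjusted p = 0.0783), and Sf3b1, the largest subunit, and Sf3b6 differed by -0.10 and -0.05 by main probe, at mean levels of 6.97 and 7.12 near the floor of the array. Of the Sf3a genes, Sf3a1 fell by 0.42 and Sf3a3 by 0.53 by main probe in wild type spermatids (adjusted p = 0.0213 and 0.0217), while Sf3a2 differed by -0.26 (adjusted p = 0.329).

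At the branch point and the 3′ splice site, U2af1, the U2af subunit that reads the end of the intron, was called lower in both genotypes. Its probe read 8.42, 9.47 and 9.03 in heterozygous spermatids against 10.14 and 10.23 in heterozygous spermatocytes, and 8.65, 9.22 and 8.61 in wild type spermatids against 10.24, 10.10 and 10.13 in wild type spermatocytes. Array 2 was the highest of both spermatid groups, and all spermatid arrays lay below the spermatocytes. U2af1 fell by 1.21 (SE 0.28, adjusted p = 0.0244, limma) in heterozygous and 1.33 (SE 0.25, adjusted p = 0.011), to 0.398 times the spermatocyte level, in wild type spermatids. The heterozygous call was lost without either heterozygous spermatocyte array, wild type spermatocyte array 2 or heterozygous spermatid array 3 (adjusted p of 0.0506 to 0.124), and with only the groups compared in the fit (0.105).

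U2af2, which binds the pyrimidine-rich tract, fell by 0.42 in heterozygous (adjusted p = 0.0458) and 0.53 in wild type spermatids (adjusted p = 0.0123) with 1 of its 2 probes. Sf1, the first protein at the branch point, had 4 tested probes that disagreed. Its main probe 102100315, at a mean level of 10.64, differed by -0.23 in heterozygous and -0.38 in wild type cells and was called in neither. Probe 103170253 differed by 0.06 in heterozygous cells (adjusted p = 0.903) and fell by 0.47 in wild type spermatids (adjusted p = 0.0394, limma). Probe 1850670 read 9.62, 8.44 and 9.75 in heterozygous spermatids against 8.02 and 8.12 in heterozygous spermatocytes (difference 1.20, adjusted p = 0.0585). It read 9.34, 8.83 and 8.83 in wild type spermatids against 8.29, 8.04 and 8.08 in wild type spermatocytes (difference 0.87, adjusted p = 0.124), so the cell types did not overlap but neither difference was called. Which part of the transcript each Sf1 probe reads was not looked up.

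The Prpf genes, whose names go back to pre-mRNA processing mutants of yeast, had 6 of 19 probes called lower in heterozygous cells, 31.6% against 9.15% of all tested probes, and 9 of 19 in wild type cells, 47.4% against 15.5%, with 0 called higher in either. Prpf8, the core of the U5 particle, was called lower with both probes in wild type cells. Its probe 1570600 read 7.30, 7.46 and 7.43 in heterozygous spermatids against 7.96 and 8.33 in heterozygous spermatocytes, and 7.20, 7.21 and 7.14 in wild type spermatids against 8.42, 8.54 and 8.04 in wild type spermatocytes. These groups did not overlap, and the probe fell by 0.74 (SE 0.15, adjusted p = 0.0151, limma) in heterozygous and 1.15 (SE 0.13, adjusted p = 0.00175) in wild type spermatids.

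Prpf3, of the U4/U6 particle, was called lower with 3 of 4 probes in wild type cells. Its main probe 2940593 read 9.01, 9.92 and 9.46 in heterozygous spermatids against 10.45 and 10.61 in heterozygous spermatocytes, and 9.46, 9.70 and 8.94 in wild type spermatids against 10.37, 10.59 and 10.42 in wild type spermatocytes. Spermatids were below spermatocytes on every array, by 1.07 (adjusted p = 0.036, limma) in heterozygous and 1.09 (adjusted p = 0.0214) in wild type cells. The heterozygous call was lost under 11 of 22 alternatives (adjusted p of 0.00331 to 0.177 over all 22), 8 of them leaving out a single array, that is any spermatocyte array, wild type spermatid array 1 or heterozygous spermatid array 1 or 3 (0.0623 to 0.177). Prpf4, its partner in the same particle, fell by 0.54 in heterozygous and 0.52 in wild type spermatids by main probe (adjusted p = 0.038 and 0.0277), while its probe 104210465 at a mean level of 6.88 differed by -0.01 in both. Prpf40b was called lower with its main probe in both genotypes, by 0.64 and 0.74. Prpf6, which joins the U4/U6 and U5 particles, fell by 0.58 in heterozygous spermatids (adjusted p = 0.0304), and Prpf19, Prpf31, Prpf38b and Prpf39 were called in neither genotype.

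Among the SR proteins 3 of 19 probes were called lower in heterozygous cells, 15.8% against 9.15% of all tested probes, and 8 of 19 in wild type cells, 42.1% against 15.5%, and 0 were called higher. Srsf1, the founding member of the family, read 9.27, 10.40 and 9.61 in heterozygous spermatids against 11.05 and 10.72 in heterozygous spermatocytes, and 9.68, 10.03 and 9.75 in wild type spermatids against 10.82, 11.05 and 11.33 in wild type spermatocytes. The nearest arrays of the cell types were heterozygous spermatid array 2 and heterozygous spermatocyte array 2. Srsf1 fell by 1.13 (SE 0.30, adjusted p = 0.0427, limma) in heterozygous and 1.25 (SE 0.27, adjusted p = 0.0185) in wild type spermatids. The wild type call was lost without wild type spermatocyte array 2 or 3 or spermatid array 1 or 3 (adjusted p of 0.0534 to 0.0655). The heterozygous call was lost under 12 of 22 alternatives, 9 of them leaving out a single array, that is any array but the spermatid arrays numbered 2 (0.0626 to 0.228).

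Srsf3, among the smallest SR proteins, was called lower with all 3 probes in wild type spermatids. Probe 770315 read 7.26, 8.11 and 7.77 in heterozygous spermatids against 8.31 and 8.53 in heterozygous spermatocytes (difference -0.71, adjusted p = 0.146). It read 7.39, 7.97 and 7.22 in wild type spermatids against 8.57, 8.67 and 8.84 in wild type spermatocytes, where it fell by 1.17 (SE 0.24, adjusted p = 0.0158, limma). The arrays did not overlap, and the wild type call was lost without wild type spermatocyte array 3 or wild type spermatid array 1 (adjusted p of 0.0564 to 0.0577). Its main probe 105290014 differed by 0.09 in heterozygous cells (adjusted p = 0.85) and fell by 0.56 in wild type spermatids (adjusted p = 0.032). Srsf9 fell by 1.05 in heterozygous and 1.04 in wild type spermatids (adjusted p = 0.0288 and 0.0194), and Srsf5 by 0.46 and 0.65 with 1 of 2 probes. The calls of Srsf9 in heterozygous cells were lost under 9 of 22 alternatives, among them leaving out any spermatocyte array, wild type spermatid array 1 or heterozygous spermatid array 1 or 3. Srsf2, Srsf6, Srsf11 and Srsf12 were called in neither genotype, and Srsf10 was called lower with 2 of 4 probes in wild type spermatids, by 0.49 and 0.33. The Srsf12 probe averaged 6.95, near the floor of the array. In its main probe Srsf11 read 7.02 on heterozygous spermatid array 3, against 8.75 and 8.79 on the other heterozygous spermatid arrays.

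The hnRNPs, which coat nascent transcripts and mostly repress nearby splice sites, had 2 of 38 probes called lower in heterozygous cells, 5.26% against 9.15% of all tested probes, and 11 of 38 in wild type cells, 28.9% against 15.5%, and 0 called higher. The heterozygous share was thus below that of all tested probes. Hnrnpm had the lowest difference of all members. Its main probe 4540451 read 9.56, 11.00 and 9.89 in heterozygous spermatids against 11.92 and 11.56 in heterozygous spermatocytes, and 9.82, 10.50 and 9.63 in wild type spermatids against 11.73, 11.79 and 12.15 in wild type spermatocytes. Both spermatid arrays numbered 2 stood above the others of their groups, and all lay below the spermatocytes. Hnrnpm fell by 1.59 (SE 0.41, adjusted p = 0.0369, limma) in heterozygous spermatids and by 1.91 (SE 0.36, adjusted p = 0.0118), to 0.267 times the spermatocyte level, in wild type spermatids. The wild type call held over 22 alternatives (adjusted p of 0.000114 to 0.0449). The heterozygous call was lost under 12 of 22, 9 of them leaving out a single array, that is any array but the spermatid arrays numbered 2 (0.0515 to 0.194).

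Hnrnpa0, an A/B-type hnRNP, separated the cell types with the smallest p of any member. It read 8.51, 8.90 and 8.77 in heterozygous spermatids against 9.90 and 9.77 in heterozygous spermatocytes, and 8.19, 8.38 and 8.45 in wild type spermatids against 9.94, 9.68 and 9.88 in wild type spermatocytes. The gap between the cell types was several times the spread within a group. Hnrnpa0 fell by 1.11 (SE 0.13, adjusted p = 0.00175, limma) in heterozygous and 1.50 (SE 0.12, adjusted p = 0.000339) in wild type spermatids, and both calls held over all 22 alternatives.

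Hnrnpl, which binds CA repeats, read 10.32, 11.99 and 11.29 in heterozygous spermatids against 12.52 and 12.39 in heterozygous spermatocytes, and 10.53, 11.11 and 10.81 in wild type spermatids against 12.47, 12.25 and 12.79 in wild type spermatocytes. Heterozygous spermatid array 2 came closest to the spermatocytes, and no arrays overlapped. Hnrnpl fell by 1.69 (SE 0.36, adjusted p = 0.0191, limma) in wild type spermatids, a call lost without wild type spermatocyte array 1 or 3 or spermatid array 1 or 3 (adjusted p of 0.0510 to 0.0691), and differed by -1.25 (adjusted p = 0.0881) in heterozygous cells. Hnrnpa3 fell by 1.05 in wild type spermatids (adjusted p = 0.00561) and Hnrnpll by 0.87 (adjusted p = 0.0336).

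Several abundant hnRNPs were not called between the cell types in either genotype. By main probe these included Hnrnpc (-0.48 in heterozygous and -0.35 in wild type cells), Hnrnpk (0.20 and -0.16), Hnrnpab (-0.10 and -0.24) and Hnrnpa2b1 (-0.43 and -1.03, adjusted p = 0.539 and 0.0509). The 95% intervals of Hnrnpk ran from -0.19 to 0.59 in heterozygous and from -0.51 to 0.19 in wild type cells. Changes within those bounds are not excluded. Hnrnpul2 had a probe called lower by 0.42 in wild type spermatids (101500537, adjusted p = 0.0265) and a probe at the array floor that did not differ beyond its spread (106040575, 0.01 in wild type cells, adjusted p = 0.945).

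**Figure D4:**
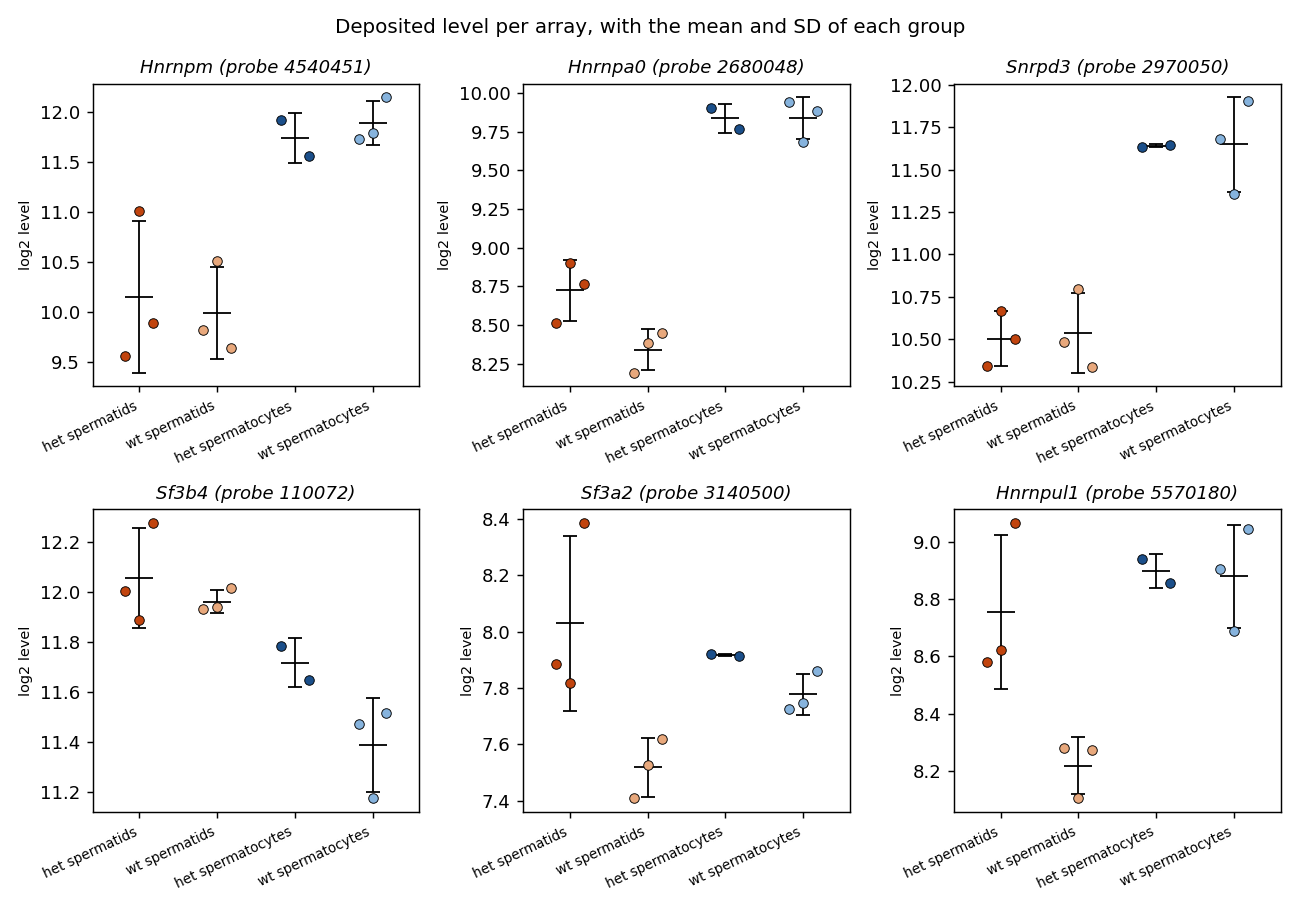
Deposited log2 level of 6 member probes on each array (points), with the mean and SD of each group (bars), spermatids left of spermatocytes and heterozygous left of wild type. Hnrnpm, Hnrnpa0 and Snrpd3 were lower in spermatids and Sf3b4 higher, and for Sf3a2 and Hnrnpul1 the heterozygous spermatids lay above the wild type spermatids; each panel has its own scale.

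Related genes outside the members were read from lists written with earlier results of these data known. Of 46 other spliceosome genes tested, by main probe, 9 were called lower in heterozygous and 18 in wild type spermatids, and 0 higher in either, where 11% and 16.9% of all named genes were called lower and 10.5% and 14.2% higher. Lsm3, of the ring on the U6 snRNA, fell by 1.59 (adjusted p = 0.0056, limma) and 1.26 (adjusted p = 0.00922) and Rbm17, a 3′ splice site factor, by 0.91 (adjusted p = 0.0317) and 1.16 (adjusted p = 0.00802). Of 39 splicing regulators 6 were called lower and 2 higher in heterozygous spermatids, and 10 lower and 1 higher in wild type spermatids. The poly(C)-binding protein Pcbp1 fell by 1.71 (adjusted p = 0.0384) and 2.14 (adjusted p = 0.0104), and Qk, the Quaking protein, by 1.27 in wild type spermatids (adjusted p = 0.0489). Rbm10, an X-linked regulator, rose by 0.82 (adjusted p = 0.0343) in heterozygous and 0.95 (adjusted p = 0.0124) in wild type spermatids.

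Among 7 kinases that phosphorylate SR proteins, the homologues Srpk1 and Srpk2 were called in opposite directions. Srpk2 read 12.26, 11.79 and 12.35 in heterozygous spermatids against 11.06 and 10.86 in heterozygous spermatocytes, and 12.09, 11.90 and 12.19 in wild type spermatids against 11.00, 11.22 and 11.07 in wild type spermatocytes. It rose by 1.17 (adjusted p = 0.00373, limma) in heterozygous and 0.96 (adjusted p = 0.00516) in wild type spermatids, with no overlap. Srpk1 fell by 0.47 in wild type spermatids (adjusted p = 0.0166) and differed by -0.26 in heterozygous cells (adjusted p = 0.198).

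The second comparison asked whether the loss of a Dnmt3L allele went with a change in these genes. In spermatids 2 of 113 member probes were called higher in heterozygous cells and 0 lower, where 0.268% of all tested probes were called higher and 0.172% lower. At an unadjusted p under 0.05 stood 10 member probes, 8.85%, against 5.17% of all tested probes. The median member difference was 0.05, against 0.01 over all tested probes, with 69 probes above zero and 44 below. Leaving out heterozygous spermatid array 2 made the median -0.0051, leaving out wild type spermatid array 3 made it -0.0094, and leaving out heterozygous spermatid array 1 made it 0.11, so its sign was not stable to the loss of 1 array.

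Sf3a2, a subunit of the Sf3a complex of the U2 particle, read 7.88, 7.82 and 8.39 in heterozygous spermatids against 7.41, 7.53 and 7.62 in wild type spermatids. Every heterozygous array was above every wild type array, and array 3 carried the largest value. Sf3a2 rose by 0.51 (95% interval 0.20 to 0.82, adjusted p = 0.043, limma), 1.43-fold, in heterozygous spermatids, and by 0.33 (adjusted p = 0.0335) without heterozygous spermatid array 3. In spermatocytes it read 7.92 and 7.91 in heterozygous against 7.72, 7.75 and 7.86 in wild type cells (difference 0.14, adjusted p = 0.724). The call was lost under 12 of 22 alternatives (adjusted p of 0.00253 to 0.874 over all 22), 8 of them leaving out a single array, that is any spermatocyte array or any wild type spermatid array (0.0671 to 0.139).

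Hnrnpul1, a relative of Hnrnpu that binds RNA and is known from the DNA damage response, was called with 1 of its 5 probes. Probe 5570180 read 8.58, 8.62 and 9.07 in heterozygous spermatids against 8.28, 8.10 and 8.27 in wild type spermatids, without overlap. It rose by 0.54 (95% interval 0.22 to 0.85, adjusted p = 0.038, limma), 1.45-fold. The main probe 6370609 read 9.34, 8.90 and 9.63 in heterozygous spermatids against 9.06, 8.90 and 8.17 in wild type spermatids, a difference of 0.58 that was not called (adjusted p = 0.221), and the other 3 probes differed by 0.37, 0.30 and -0.04. In spermatocytes probe 5570180 read 8.94 and 8.86 in heterozygous against 8.90, 8.69 and 9.04 in wild type cells, which overlapped. The call was lost under 15 of 22 alternatives (adjusted p of 0.0141 to 0.874 over all 22), 9 of them leaving out a single array, that is any array but heterozygous spermatid arrays 1 and 2 (0.0501 to 0.0949).

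When the adjustment ran within the spermatid genotype comparison alone, 0 of 27986 probes were called, and both genes stood at an adjusted p of 0.874. On heterozygous spermatid array 2 the pachytene markers averaged 10.72, against 10.35 and 10.50 on the other heterozygous spermatid arrays. Without both spermatid arrays numbered 2 the Sf3a2 difference was 0.62 (adjusted p = 0.0327) and that of Hnrnpul1 0.55 (adjusted p = 0.0686), and 5 member probes were called. Without heterozygous spermatid array 2 alone 7 were called, and 5 without heterozygous spermatid array 1. For these fits without arrays the share of all tested probes called is not given, so the counts are not read as particular to the members.

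**Figure D5:**
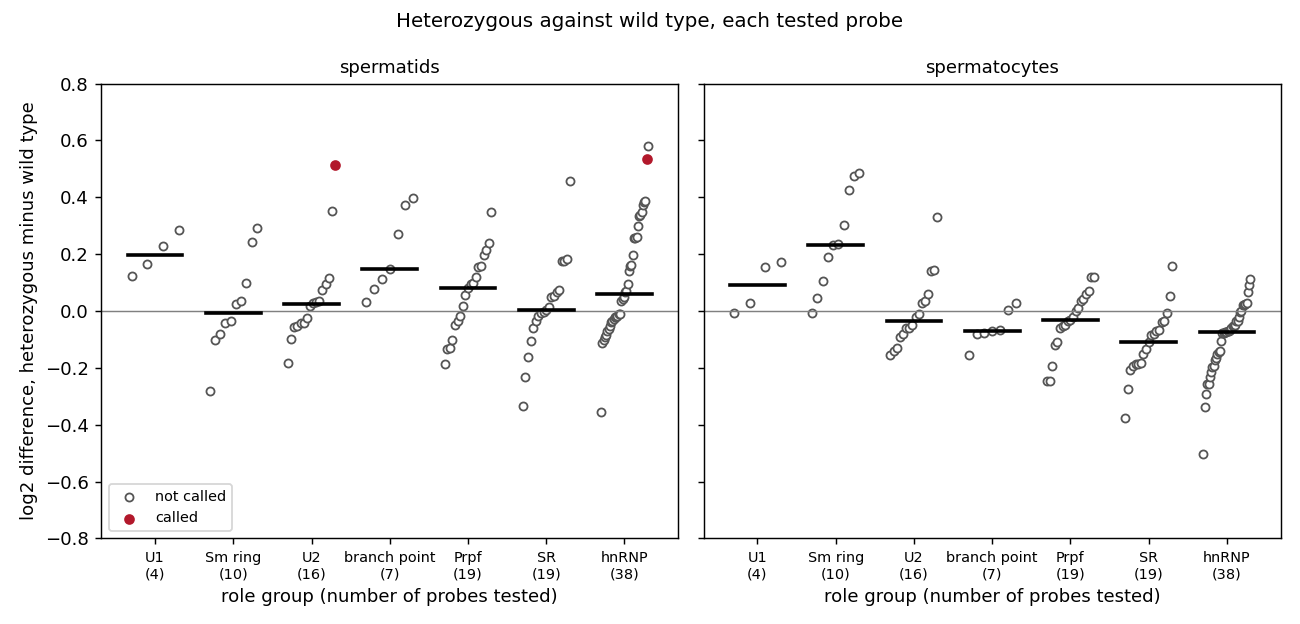
Log2 difference, heterozygous minus wild type, of each of the 113 tested probes by role group, in spermatids (left) and spermatocytes (right). Filled points passed an adjusted p of 0.05 and bars are medians; in spermatids 2 probes passed, for Sf3a2 (0.51) and Hnrnpul1 (0.54), and in spermatocytes 0 passed.

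In spermatocytes 0 of 113 member probes were called between the genotypes by limma, where 0.186% of all tested probes were called in either direction. An unadjusted p under 0.05 was reached by 3 members, 2.65%, against 2.92% of all tested probes. These were Hnrnpa3 (-0.50, adjusted p = 0.139), Snrpd1 (0.48, adjusted p = 0.165) and Sf3b4 (0.33, adjusted p = 0.172). Hnrnpa3 read 8.51 and 8.22 in heterozygous against 8.58, 8.82 and 9.21 in wild type spermatocytes, and Snrpd1 11.09 and 11.41 in heterozygous against 11.08, 10.53 and 10.72 in wild type spermatocytes. Sf3b4 read 11.78 and 11.65 in heterozygous against 11.47, 11.17 and 11.52 in wild type spermatocytes. None of the 3 overlapped between the genotypes, although the nearest Snrpd1 arrays, at 11.09 in heterozygous and 11.08 in wild type cells, almost touched. As the 3 were picked by their small p, this separation is not read as a result about the members. With 2 heterozygous arrays the 95% intervals were wide, from -0.93 to -0.08 for Hnrnpa3 and from 0.03 to 0.63 for Sf3b4.

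By role, 31 of 38 hnRNP probes and 17 of 19 SR protein probes lay below zero in heterozygous spermatocytes, while 9 of 10 Sm ring probes lay above it, with medians of -0.07, -0.11 and 0.23. None of these probes was called. Probes of a gene share their target, and all probes share the same 5 arrays, so these counts are descriptions. On the same arrays all 16 round spermatid markers lay above zero (median 0.54), with Spag4 and Lyzl6 called higher in heterozygous spermatocytes, and wild type spermatocyte array 2 had the lowest level of that list, 9.64. That array was also the lowest of the 5 for Snrpg (10.92) and Snrpf (11.03) by main probe. The part of spermatid RNA in these values was not tested.

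The third comparison asked whether the genotype difference differed between the cell types, which is the same as whether the cell type difference differed between genotypes. By limma 0 of 113 members were called, where 0% of all 27986 probes were. An unadjusted p under 0.05 was reached by 5 members, 4.42%, and by 566 probes in all, 2.02%. The member with the smallest p was Srsf3 with probe 105290014. It read 8.69, 8.74 and 8.62 in heterozygous spermatids against 8.05, 8.47 and 8.16 in wild type spermatids, and 8.59 and 8.59 in heterozygous spermatocytes against 8.86, 8.98 and 8.50 in wild type spermatocytes. The heterozygous spermatids lay above the wild type spermatids, and the spermatocyte groups overlapped. The interaction estimate was 0.64 for Srsf3, 0.53 for Sf1 (probe 103170253) and 0.52 for Hnrnpul1 (probe 5570180), each with an adjusted p of 0.9999, so the larger number of calls in wild type than in heterozygous cells is not shown to be a difference between the genotypes.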

How the data were processed

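RNA of 11 preparations was hybridised to Illumina Mouse WG-6 arrays. The deposited values were log2 expression values: per the study's methods the authors exported bead signals from BeadStudio and used lumi to take off the average negative-control signal, to stabilise the variance and then to quantile normalise. No version of either program is stated. Quantile normalisation gives all arrays 1 distribution, so a shift shared by most genes could not be seen. The raw bead table has 22 columns whose names match no sample label, and they were not used. Array data carry no read depth, and the number of arrays limits the precision.

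Probes were named through the platform annotation and the RefSeq gene table of GRCm38.p6 (32794 probes with 1 symbol, 55 with several, 13794 with none). A filter removed the 40% of probes that were dimmest on average (mean under 6.802). A linear model with the 4 groups as factor was fitted with limma 3.58.1 in R 4.3.3, with empirical Bayes moderation over 7 residual degrees of freedom. P-values were adjusted by Benjamini-Hochberg over all probes and 4 contrasts together, and over all probes for the interaction, at 0.05. Errors are standard errors of the fit or 95% intervals. On simulated data for the genotype comparison in spermatids the model was checked before use.

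The members and the gene lists were chosen with earlier results of these data known. The genes named were the members called by genotype or, where none was called, the 3 with the smallest p, up to 8 of the largest called increases and decreases between cell types in each genotype, the extremes of each role group and the 2 most changed genes of each other list. Other genes were named after their values were seen. Replicates are separate preparations per the study's methods, and the labels give only their numbers. Alternatives were the filter, the adjustment, the variance prior, array weights, the samples fitted, the mean of the probes of a gene, centring, the replicate number as a block and leaving out arrays. Upstream sequences came from the first row of a gene in the RefSeq promoter table.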

Additional observations from a re-analysis of the deposited data

How the results depend on the processing

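The direction of the member medians between cell types was negative under all alternatives run, but the counts of calls moved. A count without the share of all probes beside it is not read as a result about the members. In the spermatid genotype comparison the 2 calls became 0 without the filter, with the adjustment within each contrast, with only the groups compared or with a trend prior, 1 with the mean of the probes of a gene, 9 with array weights and 5 without both spermatid arrays numbered 2, and leaving out single arrays gave 0 to 7. In spermatocytes 0 calls became 1 with array weights, and leaving out single arrays gave 0 to 1. In heterozygous cells the 19 calls became 6 with only the groups compared, 40 with array weights (29.1% of all probes) and 36 without both spermatid arrays numbered 2, and leaving out single arrays gave 4 to 34, where the loss of a heterozygous spermatocyte array leaves a lone array assumed to vary like the other groups. In wild type cells the 45 calls became 73 with array weights (where 47.9% of all probes were called), leaving out single arrays gave 21 to 53, and the median moved to -0.26 without the filter, over 146 probes. The interaction gave 0 calls throughout.

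Whether the replicate numbers pair the samples was not settled. Over 15 same-numbered pairs the correlation of deviations from group means ran from -0.26 to 0.33, with 4 above 0.1. Between wild type and heterozygous spermatids it was 0.28, 0.33 and 0.06 for arrays 1, 2 and 3, and 0.36 for wild type array 1 with heterozygous array 3. Deviations from a mean of 2 or 3 arrays cancel out within a group, so these values cannot exclude pairing. With the replicate number as a block the calls were 3 in the spermatid and 1 in the spermatocyte genotype comparison, 13 in heterozygous and 42 in wild type cells. Of the values of named members under alternatives, 604 kept their direction and side of the threshold, 99 lost and 7 gained a call, and 10 changed sign. The 604 include values of members not called in the fit reported, which had no call to lose, so they overstate how steady the calls were. Of the 10, none was called in the fit reported, and all belong to 3 probes in the wild type cell type comparison. Hnrnpul2 probe 106040575 (0.01) became -0.32 (called, adjusted p = 0.0315, limma) and Sf1 probe 1850670 (0.87) became -0.091 as means over the tested probes of the gene. With array weights Hnrnpul2 became -0.020 and Prpf4 probe 104210465 (-0.01) became 0.041. Without both spermatid arrays numbered 2 Prpf4 became 0.0016, and leaving out single arrays gave -0.051 to 0.010 for Prpf4 and -0.032 to 0.058 for Hnrnpul2. As means over the probes of a gene, Hnrnpm became -0.91 in heterozygous and -1.15 in wild type cells, Hnrnpl -0.93 in wild type cells, Prpf3 -0.61 in heterozygous cells and Hnrnpul1 0.35 between spermatid genotypes. The cause was not tested.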
